A study of Mus musculus with 6 samples.

Results

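AMPA receptors are the glutamate-gated channels of fast excitatory synapses. The set described here holds the 4 genes of the channel subunits (Gria1, Gria2, Gria3 and Gria4, encoding GluA1, GluA2, GluA3 and GluA4) and 4 genes of auxiliary proteins (Cacng2, Cacng3, Cacng8 and Cnih2). Members were all probe sets that the platform annotation assigned to 1 of these 8 genes alone, which gave 17 of the 45037 probe sets tested. Expression was measured in the hippocampus of 3-month-old female mice heterozygous for a deficiency of the acetyltransferase p300 (p300+/-) and of wild-type littermates, all on a C57BL/6 background. Each of the 6 Affymetrix Mouse Genome 430 2.0 arrays carried RNA pooled from 4 animals, with 3 arrays and 12 animals of each genotype. The labels do not say which part of the Ep300 gene the deficient allele lacks, and a pool holds whole hippocampus with all of its cell types. The comparison asked how a reduced dose of p300 alters hippocampal transcripts, as part of work on the features and the cognition of these mice.

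An AMPA receptor is a tetramer, and its subunit composition sets its conductance and calcium permeability. GluA2 carries an edited residue in the pore that keeps the channel almost impermeable to calcium, and in adult pyramidal cells most receptors combine GluA2 with GluA1 or GluA3. The transmembrane AMPA receptor regulatory proteins (TARPs; here gamma-2 or stargazin from Cacng2, gamma-3 from Cacng3 and gamma-8 from Cacng8) carry receptors to the synapse and slow their gating, and the cornichon homologue CNIH-2 does the latter as well. TARP gamma-8 is the TARP most characteristic of the hippocampus. p300 is a lysine acetyltransferase and transcriptional coactivator that CREB, among many factors, recruits to its targets.

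Each value was a log2 intensity relative to the median of its own probe set over the 6 arrays. Values therefore compare arrays within a probe set and hold no level that could be set against another gene. The numeric steps of the deposited values placed 11 of the 17 probe sets in the brightest of 3 coarse intensity classes (log2 8 to 16) and 5 in the middle class (4 to 8), and 1 was not assigned. Over the whole array the brightest class held 27.3% of probe sets. Markers of hippocampal excitatory cells were in that class as well, with at least 1 probe set each for 5 of 5 pan-excitatory genes, 4 of 4 CA1 genes, 4 of 5 CA2 and CA3 genes and 2 of 5 granule cell genes. Ep300 itself (1434765_at) was at -0.26, -0.22 and -0.50 in p300+/- and at 0.22, 0.38 and 0.40 in wild-type arrays. Its log2 fold change was -0.66 ± 0.13 (SE), with no overlap between genotypes, and its adjusted p over the whole table was 0.9999 (limma). Over gene means, the adjusted p of Ep300 was 0.0697 with trend and robust moderation and between 0.945 and 1 in every other setting run.

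A pair of arrays stood apart. Over all probe sets, p300+/- 3 and wild-type 2 correlated at r = 0.55 although they differ in genotype, and their values had the widest spread (SD 0.29 and 0.33, against 0.18 to 0.21 in the others). Another pair of opposite genotype, p300+/- 1 and wild-type 1, correlated at r = 0.45 without a wider spread. Marker lists moved on these arrays too. The mean of 5 excitatory neuron genes was -0.74 in wild-type 2 and -0.29 in p300+/- 3, against -0.016 to 0.16 in the other 4 arrays. The lists of single excitatory cell types followed only in part: in p300+/- 3 and wild-type 2 the CA1 list was at -0.30 and -0.32, the granule cell list at -0.33 and -0.018, and the CA2 and CA3 list at -0.011 and 0.012. The mean of 6 choroid plexus genes was -2.62 in wild-type 2 and between -0.17 and 0.29 elsewhere. Results on the members are therefore also given without p300+/- 3 and wild-type 2, for each gene at least by its mean or its only probe set. In such bulk tissue, fewer cells of a type and less RNA per cell cannot be told apart.

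No member passed the test between genotypes. Of 17 probe sets 0 were called at an adjusted p under 0.05 (limma), the same as over the whole array (0 of 45037, 0% called). At an unadjusted p under 0.05 there was 1 member probe set, of Cacng8, against 1.22% of all probe sets. The 3 p300+/- arrays lay wholly above the 3 wild-type arrays in 1 member probe set (3.19% of all probe sets) and wholly below them in 1, of Gria3 (2.2% of all probe sets). Log2 fold changes of the members ran from -0.26 to 0.54 with a median of -0.053, against a median of 0.0057 over all probe sets. The median 95% interval of a member, not adjusted for the number of tests, reached 0.40 to either side of its value (0.35 over all probe sets). The arrays could thus not resolve a difference of that size in a typical member. After adjustment larger differences could fail to pass as well, as did that of Ep300 at -0.66.

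**Figure D1:**
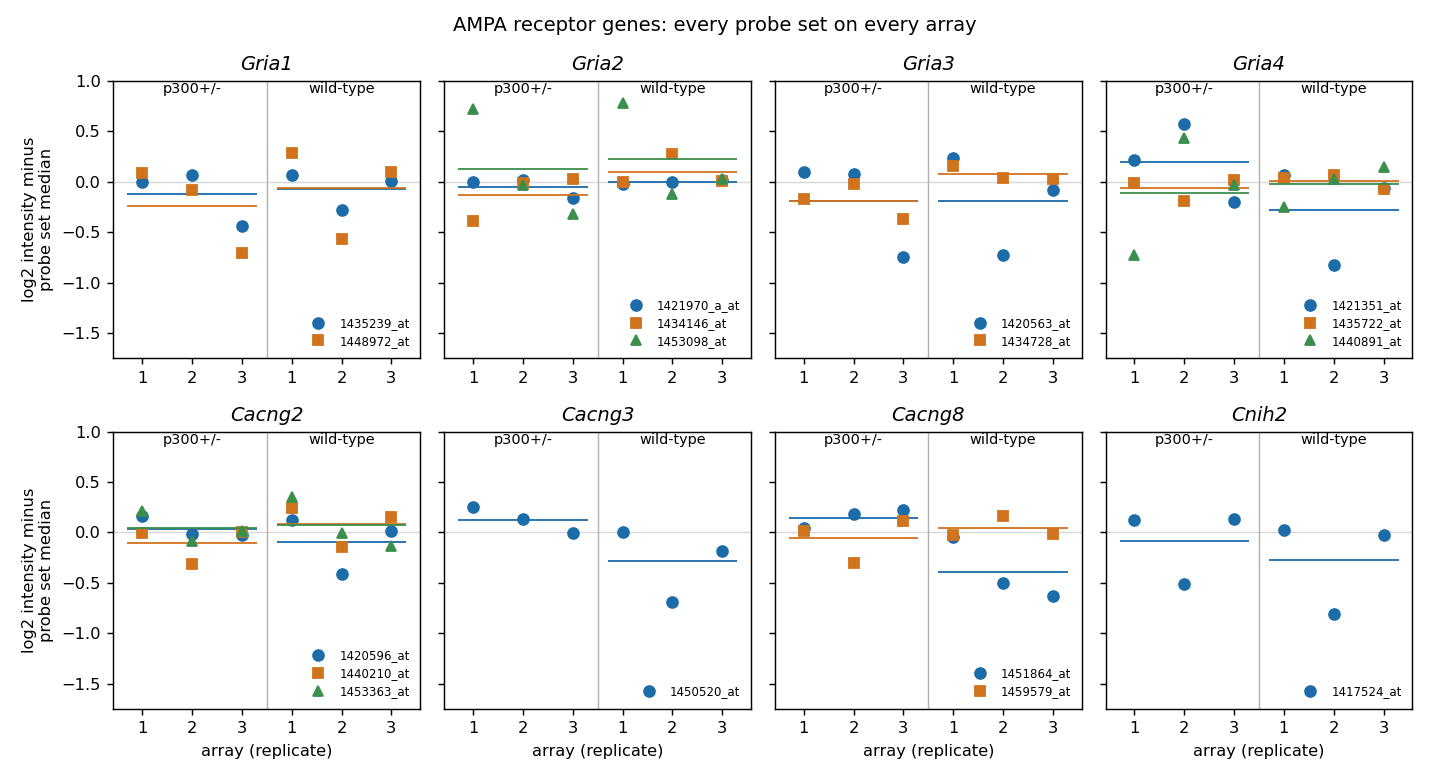
Log2 intensity of each member probe set relative to its median over the 6 arrays (vertical axis), by gene, for the 3 p300+/- and 3 wild-type arrays (horizontal axis, replicate number); points are arrays, colours are probe sets and horizontal lines are group means. Gria1 and 1 probe set of Gria3 are low in p300+/- 3 and wild-type 2 alike, Cacng3 and Cnih2 are lowest in wild-type 2 (-0.69 and -0.81), and the probe sets of Cacng8 separate in p300+/- 2 and in wild-type 2 and 3.

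The subunit genes mostly had slightly lower values in p300+/-. Of their 10 probe sets, 9 were below 0 and 1 above, with a median log2 fold change of -0.08 (48.3% of all probe sets were below 0). None passed. These probe sets come from 4 genes on the same 6 arrays and are not independent of each other. The count moved most with p300+/- 3: without it, 4 of the 10 were below 0 and 6 above (median 0.034). It was 6 below and 4 above without wild-type 1, 9 below and 1 above without wild-type 2 (median -0.14), and 7 below and 3 above without p300+/- 3 and wild-type 2 together (median -0.073).

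Gria1, the gene of GluA1, the subunit that is added to synapses during long-term potentiation, was read by 2 probe sets of the brightest class. On 1448972_at the p300+/- arrays were at 0.083, -0.083 and -0.71 and the wild-type arrays at 0.29, -0.57 and 0.094 (replicates 1 to 3). On 1435239_at they were at -0.0036, 0.067 and -0.44, and at 0.064, -0.28 and 0.0036. Both probe sets were thus low in 1 array of each genotype, p300+/- 3 and wild-type 2, and the genotypes overlapped. Their profiles over the arrays correlated at r = 0.94, the highest of any pair among the members. The log2 fold changes were -0.18 ± 0.28 and -0.053 ± 0.17 (SE), and the mean of both gave -0.11 ± 0.21, or 0.923-fold, with a 95% interval from -0.60 to 0.37 in log2 (limma, adjusted p = 0.9998). The direction depended on which arrays were kept: the mean was at 0.081 without p300+/- 3, at 0.0068 without wild-type 1, at -0.29 without wild-type 2 and at -0.10 ± 0.11 without both.

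Gria2, the gene of the calcium-blocking subunit GluA2, was read by 3 probe sets that did not follow each other. The tightest, 1421970_a_at, stayed within 0.022 of 0 on 5 arrays and was at -0.16 on p300+/- 3. Its identifier marks a probe set shared by alternative transcripts of the gene. On 1453098_at p300+/- 1 and wild-type 1 stood high at 0.72 and 0.78, while the other arrays lay between -0.32 and 0.032. On 1434146_at, by contrast, p300+/- 1 was the lowest array at -0.39 and wild-type 2 the highest at 0.28, with the rest between -0.014 and 0.023. The profiles of these last probe sets ran against each other (r = -0.63), although both were in the brightest class. All 3 had log2 fold changes below 0, at -0.047 ± 0.11, -0.10 ± 0.32 and -0.22 ± 0.16 (SE), and their mean was -0.12 ± 0.12 (95% interval -0.40 to 0.15; limma, adjusted p = 0.9998). This was the only subunit gene whose mean stayed below 0 with each array left out in turn, from -0.19 to -0.052. Without p300+/- 3 and wild-type 2 together the mean was -0.086 ± 0.12.
For 5 of the 8 members, 250 bases before the start (RefSeq promoter table, GRCm38.p6) were searched on both strands for the cAMP response element TGACGTCA, which CREB binds, its core TGACG, which the full element contains, the GC box GGGCGG and the TATA box TATAAA. The Gria2 window is shown because its gene supplies the subunit that sets calcium permeability; it lies at chr3:80802836-80803085 on the minus strand, is 64.8% G or C (median of all promoters 52.4%) and holds none of the motifs, so it has no capitals.
Gria2: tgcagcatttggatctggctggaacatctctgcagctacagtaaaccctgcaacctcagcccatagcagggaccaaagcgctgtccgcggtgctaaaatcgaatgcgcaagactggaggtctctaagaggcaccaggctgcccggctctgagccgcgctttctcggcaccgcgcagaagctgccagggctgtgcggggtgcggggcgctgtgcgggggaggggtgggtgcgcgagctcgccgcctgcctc

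Gria3, which encodes GluA3, was read by 2 probe sets of the brightest class. On 1434728_at the p300+/- arrays were at -0.17, -0.023 and -0.37 and the wild-type arrays at 0.16, 0.039 and 0.023. The genotypes did not overlap there, p300+/- being lower, though p300+/- 2 and wild-type 3 were only narrowly apart. The log2 fold change was -0.26 ± 0.13 (SE), or 0.834-fold, and its 95% interval of -0.56 to 0.039 held 0, so that it did not pass (limma, adjusted p = 0.9999). It kept its sign with each array left out (-0.34 to -0.17) and was -0.19 ± 0.13 without p300+/- 3 and wild-type 2. The other probe set, 1420563_at, gave -0.0052 ± 0.31. Its arrays were at 0.094, 0.079 and -0.75 in p300+/- and at 0.24, -0.73 and -0.079 in wild-type, so that again p300+/- 3 and wild-type 2 were low together. The mean of both was -0.13 ± 0.19, and over the arrays it correlated with the Gria1 mean at r = 0.98, both means being lowest on those arrays. Without p300+/- 3 and wild-type 2 the Gria3 mean was -0.093 ± 0.12.

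Gria4, the gene of GluA4, which is abundant in parvalbumin interneurons and in developing neurons, had the widest gap in log2 fold change between probe sets of any subunit gene. Its probe set in the brightest class, 1435722_at, varied little, from -0.19 to 0.064, and gave a log2 fold change of -0.072 ± 0.12 (SE). The dimmer 1421351_at was at 0.22, 0.57 and -0.20 in p300+/- and at 0.064, -0.83 and -0.064 in wild-type arrays. Its log2 fold change of 0.47 ± 0.28 was the largest of the subunit probe sets but had a 95% interval of -0.18 to 1.13, and it was 0.19 without wild-type 2 and 0.39 ± 0.16 without p300+/- 3 and wild-type 2. The third, 1440891_at, was at -0.73, 0.43 and -0.031 in p300+/- and at -0.25, 0.031 and 0.15 in wild-type arrays, a range within p300+/- far wider than its genotype difference of -0.089 ± 0.28. Correlations between the 3 profiles were -0.77, 0.023 and -0.54. Their mean was 0.10 ± 0.14, and 0.069 ± 0.16 without p300+/- 3 and wild-type 2. Restricted to the brightest class, only 1435722_at remained, at -0.072. Of 7 GABAergic interneuron markers 6 had values above 0 and 0 passed, and their mean ran from -0.03 to 0.28 in p300+/- and from -0.047 to 0.094 in wild-type arrays. The part of that list in the Gria4 values was not tested.

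The auxiliary genes were split, with 4 of 7 probe sets above 0, near the share on the array (51.7% of all probe sets). Their median log2 fold change was 0.13, and 3 of 4 gene means were above 0 (57.6% of all gene means). None passed. Without wild-type 2 the split was 2 above and 5 below (median -0.04), and without both p300+/- 3 and wild-type 2 it was 3 and 4 (median -0.046). The difference between subunits and auxiliary proteins was not tested.

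Cacng8, the gene of TARP gamma-8, held the member probe set with the smallest p and also the pair of probe sets of a member gene with the widest gap in log2 fold change. On 1451864_at the p300+/- arrays were at 0.043, 0.18 and 0.22 and the wild-type arrays at -0.043, -0.50 and -0.63. The genotypes did not overlap, but wild-type 1 lay close to p300+/- 1, and most of the gap lay in wild-type 2 and wild-type 3. The log2 fold change was 0.54 ± 0.17 (SE), a 1.45-fold higher level with a 95% interval of 0.14 to 0.94 in log2, with an adjusted p of 0.9999 over the whole table (limma). It ran from 0.42 without wild-type 3 to 0.71 without wild-type 1, and was 0.45 ± 0.21 without p300+/- 3 and wild-type 2. The second probe set, 1459579_at, was at 0.013, -0.30 and 0.11 in p300+/- and at -0.027, 0.16 and -0.013 in wild-type arrays. Those genotypes overlapped, and the log2 fold change was -0.10 ± 0.14. Both probe sets were in the middle class, and their profiles correlated at r = -0.38. Within each array, 1451864_at minus 1459579_at was higher in all p300+/- than in all wild-type arrays, by 0.64 ± 0.21 (SE). By this measure 4.04% (1041) of the 25762 probe sets of genes with several probe sets were wholly higher in p300+/-, and 972 were wholly lower. The same gap counts as lower for 1459579_at, so both counts apply to it. The gap did not pass over these probe sets (limma, adjusted p = 0.9999). The mean of both was 0.22 ± 0.12 (95% interval -0.054 to 0.49), and 0.16 ± 0.13 without p300+/- 3 and wild-type 2.

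Cacng3, the gene of TARP gamma-3, was read by a single probe set (1450520_at) of the brightest class. It was at 0.25, 0.13 and -0.0078 in p300+/- and at 0.0078, -0.69 and -0.18 in wild-type arrays, and the genotypes met at p300+/- 3 and wild-type 1. The log2 fold change was 0.41 ± 0.19 (SE), or 1.33-fold higher, with a 95% interval of -0.036 to 0.85 (limma, adjusted p = 0.9999). Without wild-type 2, on which the excitatory neuron genes were also low, it was 0.21, and it was 0.27 ± 0.13 without both arrays that stood apart. With no second probe set, its agreement could not be checked.

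Cacng2, the gene of stargazin, whose loss causes the stargazer phenotype of ataxia and absence seizures, had 3 probe sets around 0. On 1420596_at the p300+/- arrays were at 0.16, -0.018 and -0.029 and the wild-type arrays at 0.12, -0.41 and 0.018. There wild-type 2 alone stood low, and the log2 fold change of 0.13 ± 0.16 (SE) became -0.029 without it. On 1440210_at they were at -0.006, -0.31 and 0.006, and at 0.24, -0.14 and 0.15, giving -0.19 ± 0.15. This probe set moved to -0.35 ± 0.15 without p300+/- 3 and wild-type 2. The third, 1453363_at in the middle class, gave -0.024 ± 0.16. Their profiles agreed moderately, with r of 0.45, 0.46 and 0.51, and all 3 had p300+/- 2 below p300+/- 1. The gene mean was -0.027 ± 0.14 (95% interval -0.34 to 0.29), and -0.13 ± 0.14 without p300+/- 3 and wild-type 2.

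Cnih2, the gene of the cornichon CNIH-2, was read by 1417524_at alone. It was at 0.12, -0.51 and 0.13 in p300+/- and at 0.026, -0.81 and -0.026 in wild-type arrays. Replicate 2 of each genotype was low and the other 4 arrays lay within 0.16 of each other. The log2 fold change was 0.19 ± 0.27 (SE). It was 0.40 without p300+/- 2, -0.086 without wild-type 2 and -0.20 ± 0.22 without p300+/- 3 and wild-type 2. The promoter window of Cnih2 (chr19:5098522-5098771, minus strand, 65.6% G or C) is shown because it was the only 1 of the 5 windows searched with a motif match, 3 copies of the GC box GGGCGG on the opposite strand, in capitals.
Cnih2: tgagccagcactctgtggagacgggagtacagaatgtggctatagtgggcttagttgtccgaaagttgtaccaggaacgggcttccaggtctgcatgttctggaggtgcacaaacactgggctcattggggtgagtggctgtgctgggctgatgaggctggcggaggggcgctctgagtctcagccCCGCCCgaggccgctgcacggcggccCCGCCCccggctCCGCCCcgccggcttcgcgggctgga
Their first bases lie 64, 38 and 26 bases before the start. The same motif was present in 32.7% of the 32851 promoter windows of this length. The cAMP response element (1.55% of windows), its core (17.8%) and the TATA box (12.4%) were in 0 of the 5 member windows searched. These searches describe the letters in the windows only.

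**Figure D2:**
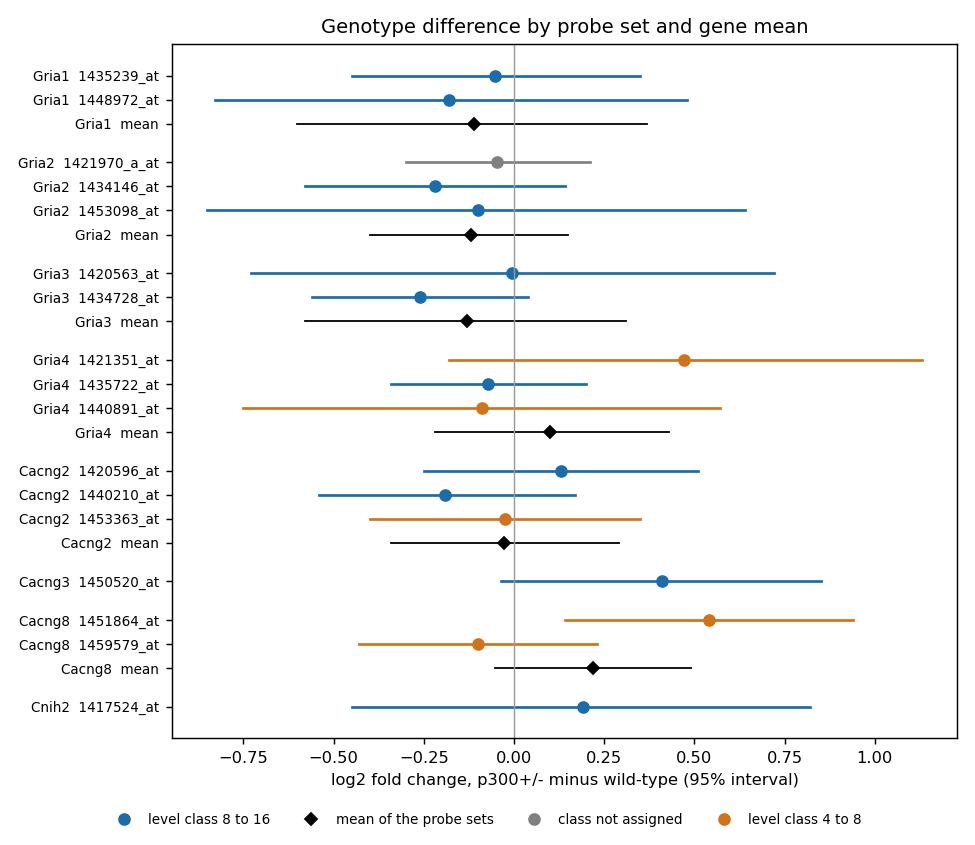
Log2 fold change of p300+/- minus wild-type (horizontal axis) with its 95% interval for each of the 17 member probe sets, coloured by intensity class, and for the mean over the probe sets of each gene with several (black diamonds). Only the interval of Cacng8 1451864_at (0.14 to 0.94) leaves out 0, and the other probe set of that gene is at -0.10.

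Agreement between the probe sets of a gene was limited, as on the array as a whole. The 6 genes with several probe sets gave 12 pairs. In 7 pairs (58.3%) the log2 fold changes had the same sign, against 53% of the 30372 such pairs over all genes. The median correlation over the 6 arrays was 0.21 (range -0.77 to 0.94), against 0.30 over all pairs. For the 4 pairs with both probe sets in the brightest class it was 0.47, against 0.59 for all such pairs. Gria1, Gria2 and Gria3 had the same sign in every probe set. Gria4, Cacng2 and Cacng8 did not.

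The departure of each probe set from the mean of the others of its gene was tested within arrays. Of the 15 member probe sets in genes with several, 0 passed (limma, adjusted p under 0.05), as over the array (0 of 25762, 0% called). At an unadjusted p under 0.05 there were 2, the mirror images of Cacng8, against 2.51% of all. The interval of that departure (0.15 to 1.13 in log2) was the only 1 to leave out 0. For Gria4 1421351_at the departure was 0.55 ± 0.30 (SE), and for the pair of Gria1 it was 0.12 ± 0.18.

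The balance of GluA1 to GluA2 transcripts, taken as the Gria1 mean minus the Gria2 mean on each array, did not separate the genotypes. It was at -0.07, 0.0027 and -0.42 in p300+/- and at -0.073, -0.48 and 0.03 in wild-type arrays. The means were -0.16 ± 0.23 and -0.17 ± 0.27 (SD, n = 3 each), a difference of 0.009 (exact two-sided permutation test, p = 0.9, where 3 against 3 arrays cannot give less than 0.1). The lowest arrays were p300+/- 3 and wild-type 2, where the Gria1 mean was at -0.57 and -0.42 and the Gria2 mean at -0.15 and 0.051.

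**Figure D3:**
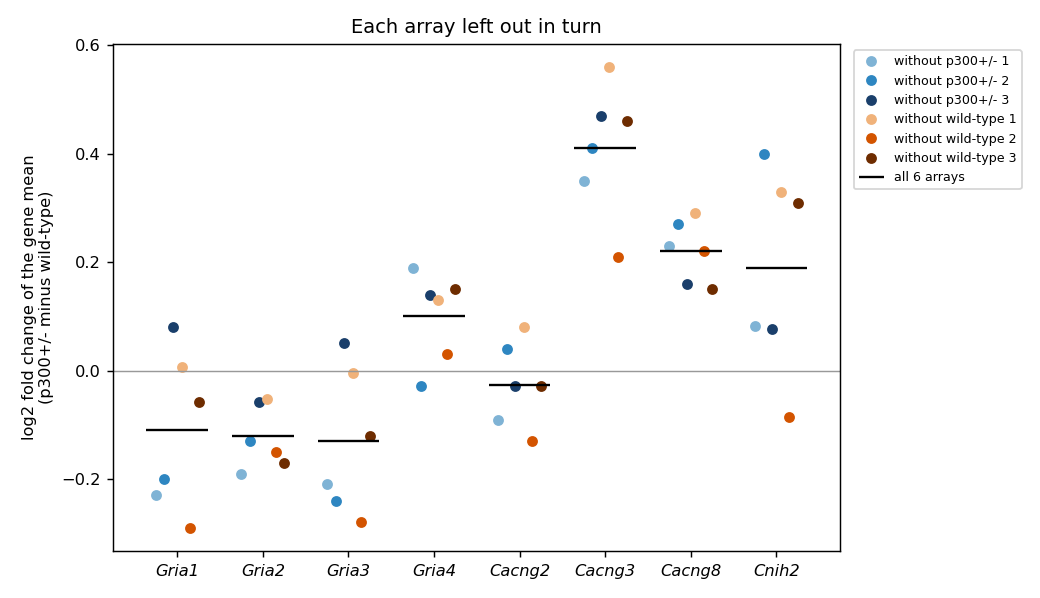
Log2 fold change of each gene mean (vertical axis; Cacng3 and Cnih2 by their only probe set) over all 6 arrays (black bars) and with each array left out in turn (points). Gria1 ran from -0.29 to 0.081, Cnih2 from -0.086 to 0.40 and Cacng3 from 0.21 to 0.56, and only Gria2, Cacng3 and Cacng8 kept 1 sign in every case.

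Part of the members had their lowest values on the arrays that stood apart. In 6 of 17 member probe sets (35.3%) p300+/- 3 and wild-type 2 were the lowest pair of arrays, against 15.8% of all probe sets. These were both probe sets of Gria1 and 1 each of Gria2 (1453098_at), Gria3 (1420563_at), Gria4 (1421351_at) and Cacng2 (1420596_at). On the last, p300+/- 3 lay only just below p300+/- 2 (-0.029 against -0.018). By gene means, with each gene counted once, p300+/- 3 and wild-type 2 were the lowest pair in 2 of 8 members (25%), against 14.8% of all genes. Cacng3 and Cnih2 were lowest in wild-type 2 but not low in p300+/- 3, and Cacng8 1451864_at was lowest in wild-type 3. The excitatory neuron list, in which 4 of 5 genes had values above 0 and 0 passed, ran from -0.29 to -0.015 in p300+/- and from -0.74 to 0.16 in wild-type arrays. The choroid plexus list had 6 of 6 values above 0 and 0 passed, with -0.088 to 0.29 and -2.62 to 0.17. The part of these lists in the member values was not tested.

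The genes with the profile most like Gria1 over the 6 arrays, by the mean of their probe sets, were Hecw1 (r = 0.997), Fgfr1op2 (0.995) and Usp7 (0.993), a ubiquitin-specific protease. All 3 were low in p300+/- 3 and wild-type 2, and 591 of 18185 genes reached r above 0.9, so that this shape was common. For Gria2 they were the ubiquitin ligase gene Herc4 (0.983), Sh3pxd2b (0.977) and Lpcat1 (0.976), with 70 genes above 0.9. For Cacng8 they were the nicotinic receptor subunit gene Chrna2 (0.990), Rnf135 (0.987) and Psg18 (0.987), each read by 1 probe set, with 133 genes above 0.9. The Gria2 and Cacng8 profiles are means of probe sets that did not follow each other (r down to -0.63 and -0.38). A gene like such a mean need not be like each of its probe sets. How many unrelated genes reach r above 0.9 over 6 arrays was not tested, so the names describe likeness of profile only.

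Genes that work with the receptor gave the same picture. Of 67 listed partners 62 were measured, and by the mean of their probe sets 34 had values above 0 (57.6% of all genes) and 28 below, with a median log2 fold change of 0.018 (0.019 over all 18193 genes) and 0 past the threshold (limma; 0% of all genes called). At an unadjusted p under 0.05 there was 1 partner gene, against 0.94% of all genes. This was Grip1, which encodes a PDZ scaffold that binds the tail of GluA2. It was at -0.18, -0.21 and -0.44 in p300+/- and at 0.17, -0.16 and 0.22 in wild-type arrays, without overlap but with p300+/- 1 narrowly below wild-type 2. Its log2 fold change was -0.35 ± 0.14 (SE), and its 2 probe sets gave -0.43 and -0.27 (limma, adjusted p = 0.9998). In the same role Dlg4, the gene of the postsynaptic scaffold PSD-95, was at 0.21 ± 0.18, and the 14 scaffold and PDZ genes split 7 to 7.

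Of the 5 other TARP and cornichon genes, 4 were above 0. Cacng5 (TARP gamma-5) was at 0.22 ± 0.12 (SE) and Cacng7 (TARP gamma-7) at 0.19 ± 0.11, the latter without overlap between genotypes. For Cacng7, however, p300+/- 3 (-0.036) and wild-type 1 (-0.037) all but met. Genotypes did not overlap in 4.72% of all genes. Other auxiliary subunits split 3 to 3, with Shisa9 (CKAMP44) at -0.067 ± 0.11 and Gsg1l at -0.10 ± 0.17. The 3 probe sets of Shisa9 ran from -0.39 to 0.34. Among the factors that assemble receptors in the endoplasmic reticulum, 2 were above and 3 below 0, with the phosphoinositide phosphatase gene Sacm1l at -0.12 ± 0.14 and Cpt1c at 0.12 ± 0.20.

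Extracellular binding partners split 5 to 5, with the olfactomedin gene Olfm3 at -0.23 ± 0.23 (SE) and C1ql3 at 0.16 ± 0.17. Single arrays carried much of both: Olfm3 was at -0.007 without p300+/- 1 and -0.022 without wild-type 2, and C1ql3 at 0.033 without wild-type 3. The probe sets of Olfm3 ran from -0.40 to 0.059 and those of C1ql3 from -0.13 to 0.34. Trafficking genes had 7 of 11 values above 0, with the clathrin adaptor gene Ap2m1 at 0.16 ± 0.11 and the retromer gene Vps35 at 0.21 ± 0.16. Vps35 was at 0.024 without p300+/- 2, and its 2 probe sets gave -0.019 and 0.44. Of the 3 genes of the ADAR family, 2 were above 0. Adar, which encodes an RNA-editing adenosine deaminase, was at 0.085 ± 0.29, and Adarb2, whose product has no known editing activity, was at -0.025 ± 0.17. The probe sets of Adar ran from -0.11 to 0.35 and those of Adarb2 from -0.36 to 0.30. Adarb1, the gene of the enzyme that edits the GluA2 site, was at 0.019 ± 0.20 (named for that role after its value was seen). The mean of these 3 genes was -0.34 in p300+/- 3 and -0.51 in wild-type 2 and between 0.083 and 0.19 on the other arrays. Kinases and phosphatases of the receptor split 4 to 4, with Ppp1ca, a catalytic subunit of protein phosphatase 1, at 0.092 ± 0.10 and the tyrosine kinase gene Fyn at -0.10 ± 0.11.

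**Figure D4:**
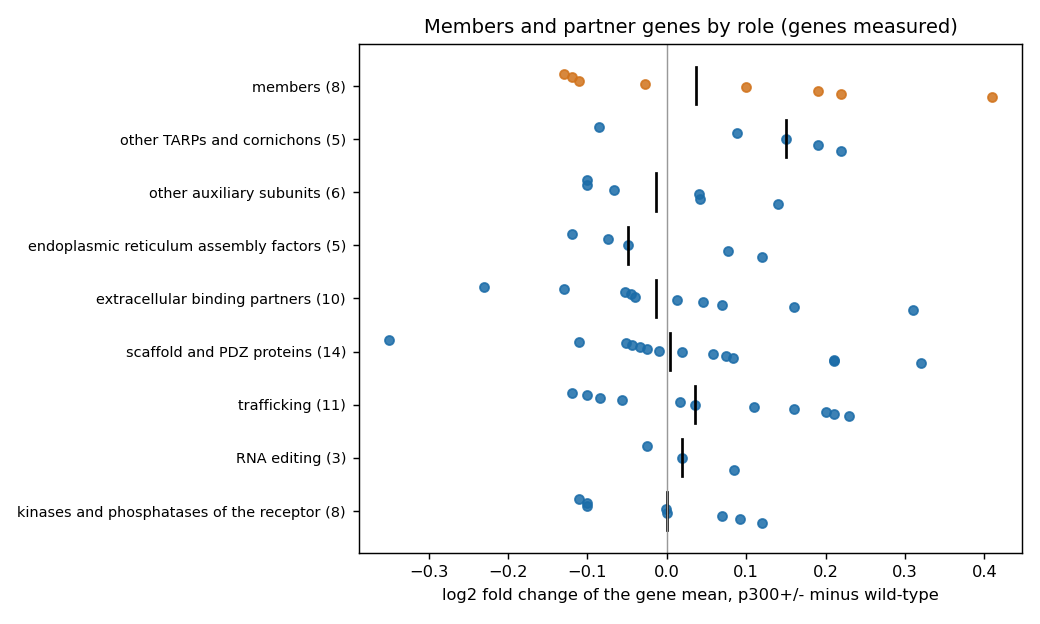
Log2 fold change of p300+/- minus wild-type by the mean over the probe sets of each gene (horizontal axis), for the 8 members (orange) and the measured partner genes by role (blue, number of genes in brackets); vertical bars are medians. No gene passed the test; the lowest partner was Grip1 at -0.35 and the median of all partners was 0.018.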

How the data were processed

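Per the labels' protocols, hippocampal RNA was extracted with Trizol and RNeasy, pooled in equal amounts and hybridized, and the authors processed and normalized the arrays in GeneSpring GX. Its version and the summarization and background correction used were not given in the sources used here. Values were deposited as log2 intensities whose row medians are 0. The base of 2 and the intensity classes were inferred from the single-precision steps of the values, and a fold depends on that base.

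The 64 control probe sets were removed. The remaining 45037 entered a linear model (limma 3.58.1 under R 4.3.3, moderated by eBayes, two-sided, no covariates, Benjamini-Hochberg over the whole table, threshold 0.05). The same fit was run on gene means (18193 genes, symbols updated by gene identifier through the RefSeq table of GRCm38.p6) and on each probe set minus the mean of the others of its gene. Promoter windows of 5 members were searched; the others are not reported here. Scripts were tested on simulated data. The number of arrays limits the precision.

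Members and lists were chosen with earlier results of these data known. The text names every member probe set, Ep300, the 2 partners per role with the smallest p, and the 3 genes most like Gria1, Gria2 and Cacng8. Per the labels, the pools of a genotype are independent replicates. Alternatives were quantile normalization, median centring, array weights, eBayes with trend and robust moderation, the replicate block, the brightest class only, omission of _s, _x and _a probe sets, a threshold of 0.1, limma's diffSplice, each array left out, and, chosen after seeing the data, omission of p300+/- 3 with wild-type 2. Figures were drawn with matplotlib 3.10.9.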

Additional observations from a re-analysis of the deposited data

How the results depend on the processing

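No probe set, member, partner gene or departure of a member within its gene was called at an adjusted p under 0.05 over all arrays or under any alternative run, each array left out and diffSplice included (limma). At a threshold of 0.1, run over all arrays for probe sets alone, 0 probe sets and 0 members were called. The 40 log2 fold changes of single probe sets and genes kept their direction under quantile normalization and median centring. Median centring moves all log2 fold changes by the same small amount. Trend and robust moderation and the replicate block leave each log2 fold change as it is by construction, so they could not change a direction. With array weights Cnih2 turned to -0.057 and Dlg4 to -0.05. Without _s, _x and _a probe sets Shisa9 turned to 0.093, Olfm3 to 0.059 and Adar to -0.049. In the brightest class alone the Gria4 mean turned to -0.072, which is the value of 1435722_at, its only probe set in that class. The difference Gria1 minus Gria2 was 0.009 and turned to -0.024 with array weights and to -0.012 both with quantile normalization and without p300+/- 3 and wild-type 2 together. That joint omission, chosen after seeing the data, also turned 1421970_a_at of Gria2 (0.0064), 1420563_at of Gria3 (0.0036) and Cnih2 (-0.20). The cause was not tested.

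With 1 array left out in turn, values that changed sign in at least 1 case ran as follows. Gria1 1435239_at ran from -0.16 to 0.10, 1448972_at from -0.43 to 0.061 and the gene mean from -0.29 to 0.081. For Gria2 the ranges were -0.077 to 0.0069 (1421970_a_at) and -0.40 to 0.17 (1453098_at). For Gria3 they were -0.28 to 0.27 (1420563_at) and -0.28 to 0.051 (mean), and for Gria4 -0.36 to 0.22 (1440891_at) and -0.028 to 0.19 (mean). For Cacng2 they were -0.029 to 0.24 (1420596_at), -0.12 to 0.11 (1453363_at) and -0.13 to 0.08 (mean). Cacng8 1459579_at ran from -0.18 to 0.019, Cnih2 from -0.086 to 0.40 and Gria1 minus Gria2 from -0.14 to 0.14. Among partners, Gsg1l ran from -0.26 to 0.059, Sacm1l from -0.22 to 0.0028, Cpt1c from -0.094 to 0.25, Adar from -0.21 to 0.34 and Adarb2 from -0.17 to 0.11. Values that kept their sign but moved widely were Olfm3 (-0.37 to -0.007), C1ql3 (0.033 to 0.30), Vps35 (0.024 to 0.32) and Dlg4 (0.10 to 0.43). Grip1 stayed below 0, from -0.47 to -0.27.

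With the replicate block 0 probe sets and 0 members were called. Each replicate number holds an array of each genotype, so Gria1 minus Gria2 stays at 0.009 with the block by construction. Deviations from the group means of same-numbered arrays correlated at 0.61, -0.23 and -0.47. Whether same-numbered arrays share more than a number was not tested. Apart from the restriction to the brightest class, a filter or floor on measured intensity was not run, since the values hold no finer level. Probe sets of low intensity could not be told from background.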
